A study of Mus musculus with 20 samples.

Results

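The comparison described here is loss of integrin beta 7 in the cells of small intestinal crypts that carry a low level of the Lgr5-GFP reporter. Its members were the 10 GFP-low libraries among the 20 libraries of the series and the 11779 gene entries of the GFP-low table, out of 12179 named in the 2 tables together. The libraries formed groups of 5, Itgb7-/- Lgr5-GFP (KO, numbered 2, 3, 4, 5 and 6) and Itgb7+/+ Lgr5-GFP (WT, numbered 1, 3, 6, 7 and 8). All mice were C57BL/6J, 8 weeks old and carried Lgr5-GFP, which reports transcription at the locus of a crypt stem cell receptor. The labels name no promoter or Cre driver for the Itgb7 allele, so the loss is not described as limited to one cell type. Crypt cells had been sorted as live EpCAM+ cells without CD45, CD31 or TER119, and GFP-high cells of the same genotypes served as the second population. The labels number the libraries without saying that each number is a separate mouse, so p-values measure the spread between these libraries.

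Integrin beta 7 is a cell surface adhesion subunit that pairs with integrin alpha 4 to bind MAdCAM-1 on gut vessels, or with alpha E to bind E-cadherin on epithelial cells. In the intestine it is known mainly from lymphocytes, which use it to enter the gut wall and to stay among epithelial cells. Crypt stem cells at the crypt base give rise to transit-amplifying cells, which divide several times while Wnt signals decline and then mature into absorptive cells or into Paneth, goblet, enteroendocrine and tuft cells.

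The labels call the GFP-low cells transit-amplifying, and the data went only partly with that name. Lgr5 averaged 7 CPM (read counts scaled to library size) in KO GFP-low and 105.4 CPM in KO GFP-high cells, and 12.9 CPM in WT GFP-low and 101.7 CPM in WT GFP-high cells, with all 20 libraries on a common scale. Mki67, a marker of dividing cells, was present in GFP-low cells but at a lower level than in GFP-high cells, 112.1 against 183.3 CPM in KO and 97.3 against 147.7 CPM in WT. Lyz1, the lysozyme of Paneth granules, averaged 13650 CPM in KO GFP-low and 4893 CPM in KO GFP-high cells, and 20740 CPM in WT GFP-low and 5265 CPM in WT GFP-high cells. All 6 fixed markers each of Paneth, goblet, enteroendocrine, tuft and enterocyte cells had rows in the table. RNA of these lineages was also measured in GFP-high cells, as given for Lyz1, so its presence is not particular to GFP-low cells. The population is therefore called GFP-low cells below, a mixture that holds dividing cells together with RNA of mature lineages.

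Depth was even, with 20900404 to 27838392 counts in KO and 21465693 to 23182256 counts in WT libraries. The 33 measured genes of a Paneth cell list took 3.65%, 12.9%, 15.4%, 10.9% and 15% of the counts of KO libraries 2, 3, 4, 5 and 6, against 12.4%, 27.4%, 7.93%, 13.9% and 26.1% in WT libraries 1, 3, 6, 7 and 8. WT libraries 3 and 8 thus stood apart at the high end and KO library 2 at the low end. Many list results below are therefore also given with 1 or more libraries left out. In sorted bulk samples, fewer cells of a type and less RNA per cell cannot be told apart. The 12 measured genes of a T cell and intraepithelial lymphocyte list summed to 28.1 to 105.1 CPM in KO and 25.7 to 79.2 CPM in WT libraries, with a median log2 fold change of 0.34 and 10 of 12 above 0. Ptprc, Cd3e, Cd3g, Cd8a and Trac, 5 of the 6 fixed T cell markers, had no row, while the granzyme gene Gzma was at 2.40 to 19.9 CPM in KO and 0.772 to 9.40 CPM in WT libraries. No row was held by any of the fixed B cell, myeloid or erythroid markers. Because Itgb7 is not analysed here, no check of genotype against its transcript is given. Y-linked transcripts were present in 3 of 5 libraries of each group, numbers 3, 4 and 5 of KO and 1, 7 and 8 of WT.

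The question of the comparison was which transcripts of GFP-low cells differ without Itgb7. Of 11778 genes tested with edgeR, 1 passed an adjusted p under 0.05, which is 0.00849% of them, and it was lower in KO cells. This gene was Arhgef10, which encodes a guanine nucleotide exchange factor. At an unadjusted p under 0.05, 744 genes (6.32%) differed, 345 (2.93%) higher and 399 (3.39%) lower in KO cells. DESeq2 called 12 genes on the same counts (0.102%), 1 higher and 11 lower in KO cells. With 1 library left out, 243 to 458 of all genes were higher and 289 to 562 lower at an unadjusted p under 0.05 in edgeR. Without WT libraries 3 and 8 together, 181 were higher and 256 lower. List counts with libraries left out are to be read beside these numbers. The median log2 fold change over all genes was -0.00352, and with scaling by library totals only it shifted to 0.145, so list values are read relative to the median of all genes.

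Arhgef10 lies on chromosome 8 at 14911663 to 15001085, plus strand (GENCODE M21, GRCm38, the assembly also called mm10). It was at 0.716, 0.905, 0.893, 0.721 and 0.827 CPM in KO libraries 2, 3, 4, 5 and 6, against 3.02, 4.31, 4.54, 4.18 and 4.05 CPM in WT libraries 1, 3, 6, 7 and 8. Every KO library was below every WT library, and the groups were separated by a gap wider than the spread within either. These levels rested on 18 to 22 counts per KO library and 72 to 114 counts per WT library. Arhgef10 fell by 2.30 ± 0.21 on the log2 scale (SE; edgeR adjusted p = 0.00069), and its mean level was 4.93-fold higher in WT than in KO cells. Leaving out each library in turn gave -2.39 to -2.25, and the call held each time. Without WT libraries 3 and 8 together the adjusted p was 0.0272.

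**Figure D1:**
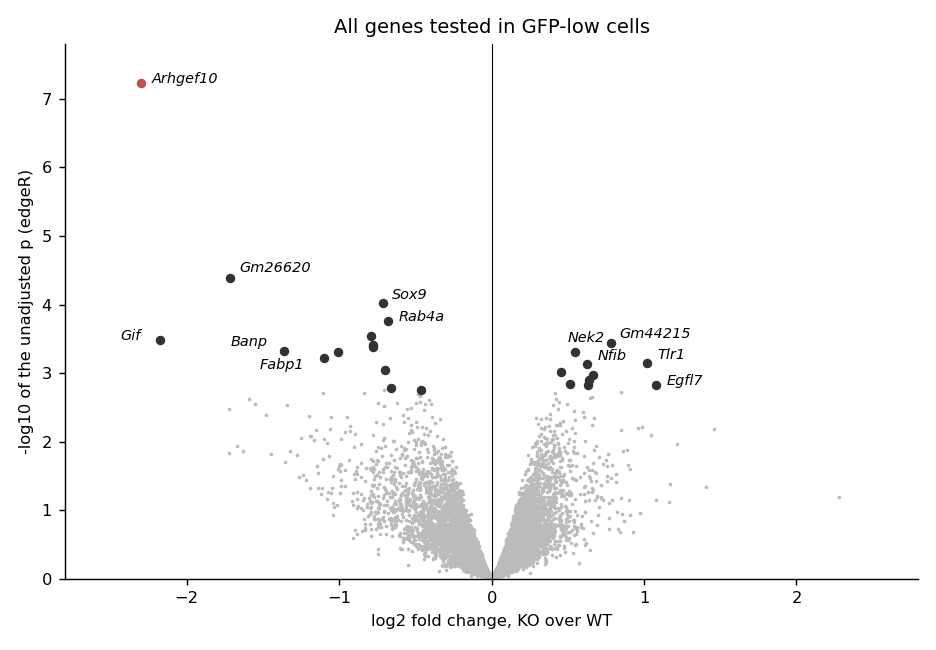
Log2 fold change (KO over WT, x axis) against -log10 of the unadjusted edgeR p (y axis) for the 11778 genes tested in GFP-low cells. The 24 named genes are dark, with Arhgef10 in red at a log2 fold change of -2.30, apart from all others.

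The 23 next genes by p did not pass (edgeR adjusted p 0.241 to 0.731) and are given as values only. Of the 24 named genes, 10 were higher and 14 lower in KO cells. All KO libraries were above all WT libraries for 10 and below them for 8, where 0.662% and 0.408% of all genes tested were separated in this way. The choice by smallest p used these values, so nothing is read from that share.

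Among genes of crypt and progenitor identity, Sox9, a transcription factor of crypt stem cells, progenitors and Paneth cells, was at 61.3, 76.7, 73.0, 83.9 and 77.2 CPM in KO libraries, against 93.2, 137.8, 108.0, 129.1 and 142.3 CPM in WT libraries. The groups did not overlap, and the highest WT levels were in libraries 3 and 8, the libraries of highest Paneth share. The log2 fold change of Sox9 was -0.71 ± 0.13 (SE; edgeR adjusted p = 0.370, DESeq2 0.00213). Lgr5, the receptor that amplifies Wnt signals and whose locus drives the reporter, was at 4.81, 8.36, 8.56, 3.71 and 5.95 CPM in KO libraries, against 17.3, 17.0, 13.0, 4.54 and 6.10 CPM in WT libraries. Its groups overlapped, since WT libraries 7 and 8 lay within the KO range, and its log2 fold change was -0.89 ± 0.36 (adjusted p = 0.752). Nfib, a transcription factor of the nuclear factor I family, was at 100.7 to 161.8 CPM in KO and 71.2 to 99.8 CPM in WT libraries, which did not overlap (0.63 ± 0.14; adjusted p = 0.573). Tbx3, a T-box transcription factor, was at 5.36 to 8.11 CPM in KO and 8.02 to 12.8 CPM in WT libraries, which overlapped (-0.70 ± 0.17; adjusted p = 0.658).

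Arhgef10 and 3 more of the 24 named genes lie on chromosome 8, and chromosomes 5 and 9 hold 4 and 3 of the 24. Of 668 tested genes of chromosome 8, 8.23% had an unadjusted p under 0.05, against 6.32% of all genes. Rab4a (chr8:123805985-123835287, plus strand), a small GTPase of endosome recycling, was at 31.3, 26.1, 24.7, 32.1 and 27.4 CPM in KO libraries, against 33.7, 45.6, 54.0, 44.3 and 49.7 CPM in WT libraries. The groups did not overlap, although WT library 1 was close to the highest KO libraries (log2 fold change -0.68 ± 0.13; edgeR adjusted p = 0.490, DESeq2 0.00462). Banp (chr8:121949750-122029258, plus strand), a DNA-binding regulator of transcription, was at 35.1, 20.7, 21.1, 11.2 and 12.5 CPM in KO libraries, against 54.2, 28.2, 49.8, 70.4 and 55.2 CPM in WT libraries. Only WT library 3 lay within the KO range, and the log2 fold change of Banp was -1.36 ± 0.30 (edgeR adjusted p = 0.490, DESeq2 0.00462). Cenpt (chr8:105844673-105853278, minus strand), a kinetochore protein, was higher, at 23.5 to 25.97 CPM in KO and 13.5 to 20.7 CPM in WT libraries (0.51 ± 0.13; adjusted p = 0.731). On chromosome 15 within 5 Mb of Itgb7, 0 of 92 tested genes passed in edgeR, 4 were higher and 1 lower at an unadjusted p under 0.05 (5.43%, against 6.32% of all genes), and the median log2 fold change was 0.054. Racgap1, given below with genes of cell division, is among the 4 higher genes of this window.

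**Figure D2:**
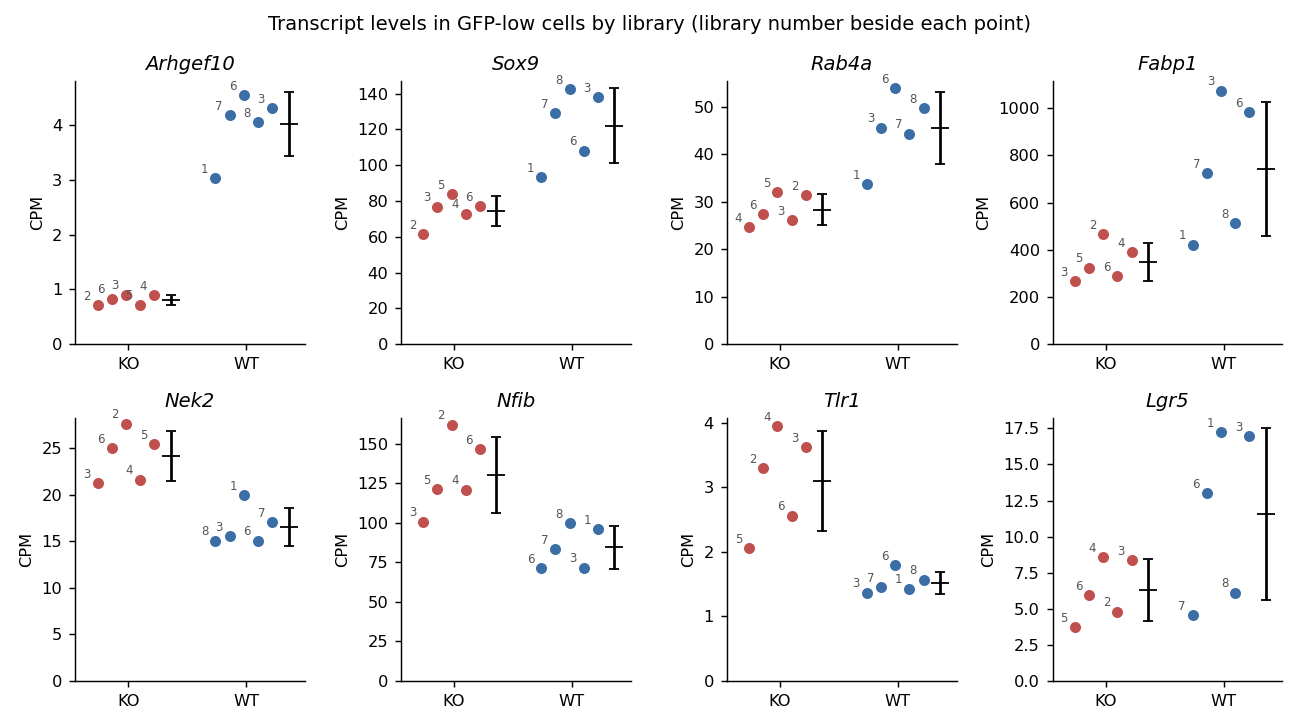
CPM of 8 named genes in each GFP-low library (y axis, from 0), KO in red on the left and WT in blue on the right, with library numbers beside the points and mean and SD as black bars (n = 5 each). Arhgef10 is below 1 CPM in every KO library and above 3 CPM in every WT library, while the Lgr5 groups overlap.

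The named genes also held Fabp1 and glutathione transferase genes. Fabp1, the liver-type fatty acid binding protein of enterocytes, was at 466.2, 268.1, 389.5, 324.5 and 287.7 CPM in KO libraries, against 422.3, 1075, 983.1, 724.6 and 512.0 CPM in WT libraries. WT library 1 lay within the KO range, and the log2 fold change was -1.10 ± 0.25 (edgeR adjusted p = 0.550, DESeq2 0.00796). Gstm3, a mu class glutathione transferase, was at 178.9 to 315.7 CPM in KO and 353.1 to 510.4 CPM in WT libraries without overlap (-0.78 ± 0.17; edgeR adjusted p = 0.490, DESeq2 0.00873). Gsta1 and Gm3776, neighbouring alpha class glutathione transferase genes on chromosome 9, were at 99.4 to 201.2 and 62.7 to 118.2 CPM in KO libraries, against 198.9 to 248.7 and 127.9 to 161.5 CPM in WT libraries. KO library 4 was the highest KO library for both, and for Gsta1 it lay within the WT range. The log2 fold changes were -0.66 ± 0.17 for Gsta1 and -0.79 ± 0.16 for Gm3776 (edgeR adjusted p = 0.731 and 0.490), and without KO library 4 Gm3776 also passed.

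The promoters of Gsta1 and Gm3776 are printed because they show how alike these upstream stretches are. Of the 237 bases that align without gaps within the 250 bases before each RefSeq start (GRCm38.p6, plus strand), 236 were identical (99.6%), and the 1 that differs is in capitals. RSEM shares reads between genes with near-identical transcripts, and the transcripts of this pair were not compared. The counts of each gene alone are therefore treated as uncertain, and both are read as a pair.
Gsta1, chr9:78230419-78230668: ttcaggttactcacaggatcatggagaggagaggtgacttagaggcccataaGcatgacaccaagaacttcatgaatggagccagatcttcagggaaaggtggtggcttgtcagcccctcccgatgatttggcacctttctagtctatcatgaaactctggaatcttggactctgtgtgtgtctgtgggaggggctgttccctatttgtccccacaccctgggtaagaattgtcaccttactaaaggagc
Gm3776, chr9:78256879-78257128: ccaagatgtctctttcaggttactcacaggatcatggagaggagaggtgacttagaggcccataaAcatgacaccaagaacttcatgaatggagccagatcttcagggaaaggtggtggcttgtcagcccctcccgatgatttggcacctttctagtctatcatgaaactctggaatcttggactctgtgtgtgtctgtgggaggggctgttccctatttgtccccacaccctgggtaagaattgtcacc

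The Fabp1 promoter, as the RefSeq table gives it on the plus strand, is shown because Fabp1 is a known target of the PPAR nuclear receptors. Capitals mark AGGTCA, the half-site of many nuclear receptors, searched on both strands without overlap between matches. Both matches read TGACCT on the printed strand, and 14.0% of 32851 promoter windows of the same length held at least 1 match.
Fabp1, chr6:71199629-71199878: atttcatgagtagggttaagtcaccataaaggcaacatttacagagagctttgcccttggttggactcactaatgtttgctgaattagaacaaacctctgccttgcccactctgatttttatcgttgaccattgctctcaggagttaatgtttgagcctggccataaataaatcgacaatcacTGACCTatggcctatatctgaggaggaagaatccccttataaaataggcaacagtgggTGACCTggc

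The list of absorptive enterocyte genes had 46 tested members, of which 0 passed, 41 had a log2 fold change below 0 and 16 were lower at an unadjusted p under 0.05 (34.8%, against 3.39% of all genes). The median was -0.34. Fabp2, the intestinal fatty acid binding protein, was at 360.3, 271.4, 342.0, 303.7 and 302.6 CPM in KO libraries, against 363.9, 528.5, 506.8, 396.7 and 414.4 CPM in WT libraries, without overlap (-0.48 ± 0.13; adjusted p = 0.731). Rbp2, which carries retinol within enterocytes, was at 109.1 to 206.8 CPM in KO and 136.1 to 357.4 CPM in WT libraries (-0.71 ± 0.23). The summed level of the list overlapped between groups, at 10270, 7009, 7310, 12380 and 7332 CPM in KO libraries and 7458, 12420, 13130, 10490 and 10780 CPM in WT libraries. The count at an unadjusted p under 0.05 was 8 without KO library 3, 5 or 6, 23 without KO library 2 and 18 without WT libraries 3 and 8 together. In the overlapping list of fatty acid oxidation genes and PPAR targets, 11 of 34 tested members were lower at that threshold (32.4%, against 3.39% of all genes). In that list 0 were higher, and the median was -0.20. Cyp4a10, a fatty acid hydroxylase, was at 0.324 to 1.65 CPM in KO and 1.34 to 4.82 CPM in WT libraries (-1.59 ± 0.43), and Acot2, a mitochondrial thioesterase, at 90.5 to 161.6 and 122.1 to 395.3 CPM in KO and WT libraries (-0.96 ± 0.31). Both pairs of groups overlapped, and the list count was 7 without WT library 6 or 7, 14 without WT library 1 and 12 without WT libraries 3 and 8, with medians of -0.27 to -0.12 with 1 library left out.

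Genes of cell division leaned the other way. Of 54 tested genes of G2 and mitosis, 0 passed, 51 had a log2 fold change above 0 and 16 were higher at an unadjusted p under 0.05 (29.6%, against 2.93% of all genes), with a median of 0.25. Ccna2, which encodes cyclin A2, was at 57.4, 36.6, 36.4, 42.7 and 51.1 CPM in KO libraries, against 35.9, 30.3, 31.8, 35.6 and 28.6 CPM in WT libraries. The Ccna2 groups did not overlap, by a narrow margin, and the log2 fold change was 0.47 ± 0.14 (adjusted p = 0.745). The motor protein genes Kif20a and Kif2c had log2 fold changes of 0.50 ± 0.17 and 0.54 ± 0.19, and Cdc25c, the phosphatase that starts mitosis, 0.42 ± 0.13. The following genes are from the 24 named genes and not from that list, so they add nothing to its count. Nek2, a centrosome kinase, was at 27.6, 21.3, 21.6, 25.4 and 25.0 CPM in KO libraries, against 19.9, 15.5, 15.1, 17.1 and 15.1 CPM in WT libraries (0.55 ± 0.12; adjusted p = 0.490). Racgap1, needed for cytokinesis, was at 39.6 to 57.7 CPM in KO and 22.4 to 35.7 CPM in WT libraries (0.63 ± 0.16), and Mad1l1, a spindle checkpoint protein, at 28.6 to 32.7 and 18.8 to 24.9 CPM in KO and WT libraries (0.46 ± 0.11). Nek2, Racgap1 and Mad1l1 did not overlap between groups, and all were chosen for a small p. Racgap1 also lies within 5 Mb of Itgb7 on chromosome 15, and the part of that position in its values was not tested.

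The size of the mitotic count turned on single libraries. It was 6 of 54 without KO library 2, 24 without WT library 7, and 5 without WT libraries 3 and 8 together. Of all genes, 400, 340 and 181 were higher in these fits, in the same order. The list median stayed between 0.197 and 0.345 with each library left out and was 0.22 without WT libraries 3 and 8. Summed over the list, G2 and mitosis genes were at 4396, 3249, 3430, 3485 and 4310 CPM in KO libraries and 3202, 3389, 2715, 3888 and 2857 CPM in WT libraries, so the groups overlapped. KO library 2, which had the highest sum, also had the lowest Paneth share, and the part of the Paneth share in this difference was not tested. Of 52 tested genes of S phase, when DNA is copied, 42 lay above 0, with a median of 0.10. At an unadjusted p under 0.05, 3 were higher (5.77%, against 2.93% of all genes). That count was 0 without WT library 3 and 7 without WT library 7. In GFP-high cells 42 of the 54 G2 and mitosis genes were higher at an unadjusted p under 0.05 (4.81% of all genes were, and 4.98% were lower), with a median of 0.36, from the same numbered samples.

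The promoters of Nek2 and Racgap1 are shown because promoters of many mitotic genes are known to carry the CCAAT box bound by NF-Y. Capitals mark CCAAT on either strand, in the 250 bases before the RefSeq start (GRCm38.p6). This box was present in 40 of 53 promoter windows of 46 G2 and mitosis genes (75.5%) and in 33.8% of all 32851 windows.
Nek2, chr1:191821223-191821472, plus strand: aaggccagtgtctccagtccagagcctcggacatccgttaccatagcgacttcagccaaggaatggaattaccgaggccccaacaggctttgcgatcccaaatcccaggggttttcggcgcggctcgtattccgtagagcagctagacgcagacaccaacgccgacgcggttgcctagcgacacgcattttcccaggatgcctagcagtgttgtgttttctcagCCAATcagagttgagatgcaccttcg
Racgap1, chr15:99651657-99651906, minus strand: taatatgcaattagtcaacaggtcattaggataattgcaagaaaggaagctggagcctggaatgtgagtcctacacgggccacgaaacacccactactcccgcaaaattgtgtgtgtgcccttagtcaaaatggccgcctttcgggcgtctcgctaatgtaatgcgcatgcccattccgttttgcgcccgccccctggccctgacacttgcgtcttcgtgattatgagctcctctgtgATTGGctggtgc

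**Figure D3:**
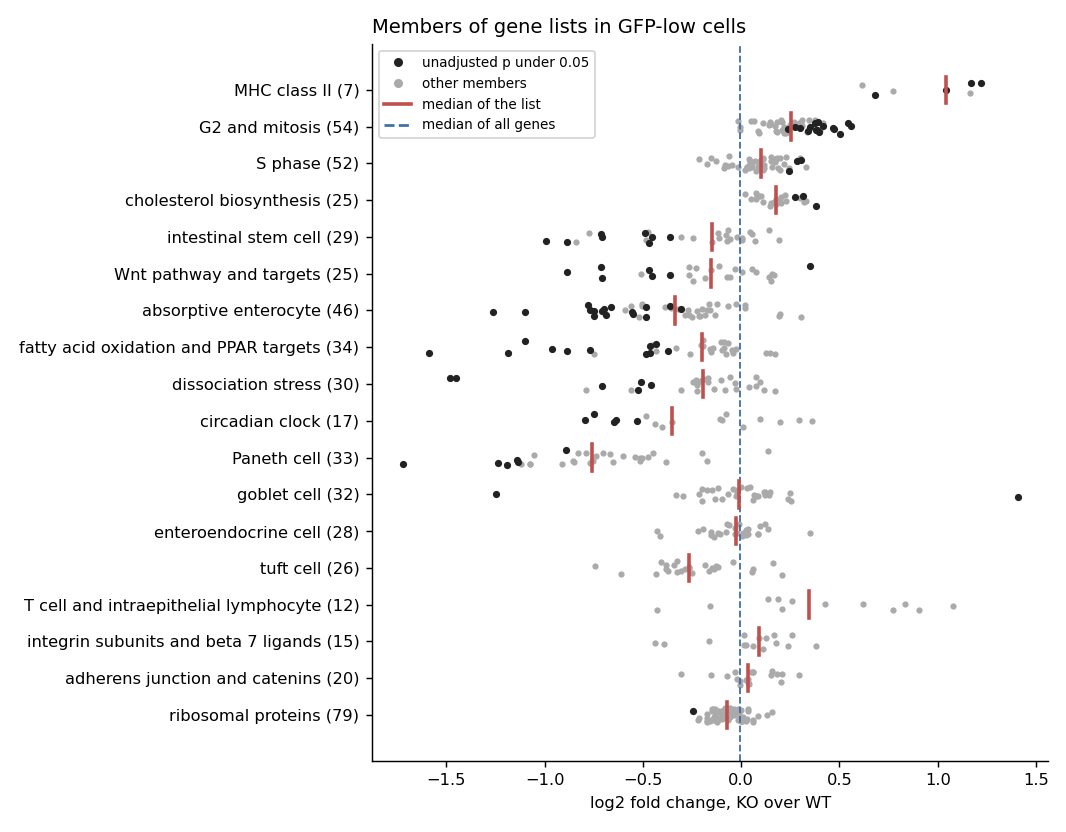
Log2 fold changes (KO over WT, x axis) of the tested members of 18 gene lists in GFP-low cells, with the number tested in brackets; black points have an unadjusted p under 0.05, red bars are list medians and the dashed line is the median of all genes. The median is 1.04 for MHC class II, 0.25 for G2 and mitosis, -0.34 for absorptive enterocyte and -0.76 for Paneth cell genes.

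Stem cell and Wnt genes also leaned to lower values. Of 29 tested genes of the intestinal stem cell list, 0 passed, 8 were lower (27.6%, against 3.39% of all genes) and 0 higher at an unadjusted p under 0.05, and the median was -0.15. Beside Sox9 and Lgr5 these included Ascl2, a transcription factor that maintains crypt stem cells, at 3.25 to 4.40 CPM in KO and 4.38 to 6.08 CPM in WT libraries (-0.47 ± 0.17), and Gkn3, at 12.4 to 23.3 CPM in KO and 17.0 to 36.9 CPM in WT libraries (-0.71 ± 0.22). Both overlapped between groups, each through 1 or more libraries. Olfm4 and Smoc2, which also mark stem cells, had log2 fold changes of -0.02 and 0.05, so the members differed in direction. Without WT library 3 the count was 3, without WT library 8 it was 10, and without both it was 6. Among 25 tested genes of the Wnt pathway 6 were lower (24%, against 3.39% of all genes) at that threshold. In the same list 1 was higher (4%, against 2.93%), and the median was -0.15. The lower count was 4 without WT library 3 or 6, 7 without WT library 8 and 6 without WT libraries 3 and 8 together. Of the 6 lower with all libraries, 5, all but Myc, also belong to the stem cell list. Myc, a growth regulator and Wnt target, was at 30.8, 42.9, 34.4, 31.6 and 28.6 CPM in KO libraries, against 48.1, 40.5, 44.3, 80.2 and 61.4 CPM in WT libraries (-0.71 ± 0.18; adjusted p = 0.731), where 1 WT library lay below the highest KO library. Ctnnbip1, an inhibitor of beta-catenin, was the member higher, at 25.3 to 33.4 CPM in KO and 20.9 to 24.4 CPM in WT libraries without overlap (0.35 ± 0.11). Of 19 Notch pathway genes 2 were higher (10.5%, against 2.93% of all genes) and 0 lower, with a median of 0.07. That count was 0 without KO library 5 or WT library 6 or 7, 3 were lower without WT library 1, and the median was -0.05 without KO library 5 or WT library 3.

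Secretory lineages differed in how much they depended on single libraries. Of 33 tested Paneth cell genes, 0 passed, 32 were below 0, and 6 were lower at an unadjusted p under 0.05 (18.2%, against 3.39% of all genes), with a median of -0.76. That count was 1 without WT library 3 or 8 and 15 without WT library 6. Defa24, an alpha-defensin, was at 7534 to 38110 CPM in KO and 19110 to 89700 CPM in WT libraries, and its individual counts are uncertain because defensin genes are near-identical. Without WT libraries 3 and 8 the median of the Paneth list was 0.03 and 0 of its genes were lower at that threshold. Those libraries were picked for their high Paneth share, so leaving them out had to raise this median, and nothing more is read from it. With only WT library 3 or only WT library 8 left out, the median was -0.47 or -0.51. Goblet (median -0.01, 32 tested), enteroendocrine (-0.02, 28 tested) and secretory progenitor genes (0.06, 17 tested) had medians that turned on single libraries. Without WT library 8 these were 0.23, 0.12 and 0.21, and without WT library 3 they were -0.06, -0.14 and -0.09, in the same order. Without both libraries they were 0.19, -0.00233 and 0.08. Atoh1, the transcription factor that starts the secretory fate, was at 7.196, 10.7, 8.23, 3.28 and 11.9 CPM in KO libraries, against 7.51, 25.5, 14.3, 12.6 and 38.3 CPM in WT libraries. The 2 highest Atoh1 values were those of WT libraries 3 and 8, and WT library 1 lay within the KO range (-1.25 ± 0.41; adjusted p = 0.745). Tuft cell genes had a median of -0.27 with 0 of 26 at an unadjusted p under 0.05 in edgeR, against 6.32% of all genes. Without WT library 3 the median was -0.49 and 4 were lower, without WT library 6 the median was -0.10, and without WT libraries 3 and 8 the median was -0.39 and 2 were lower.

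**Figure D4:**
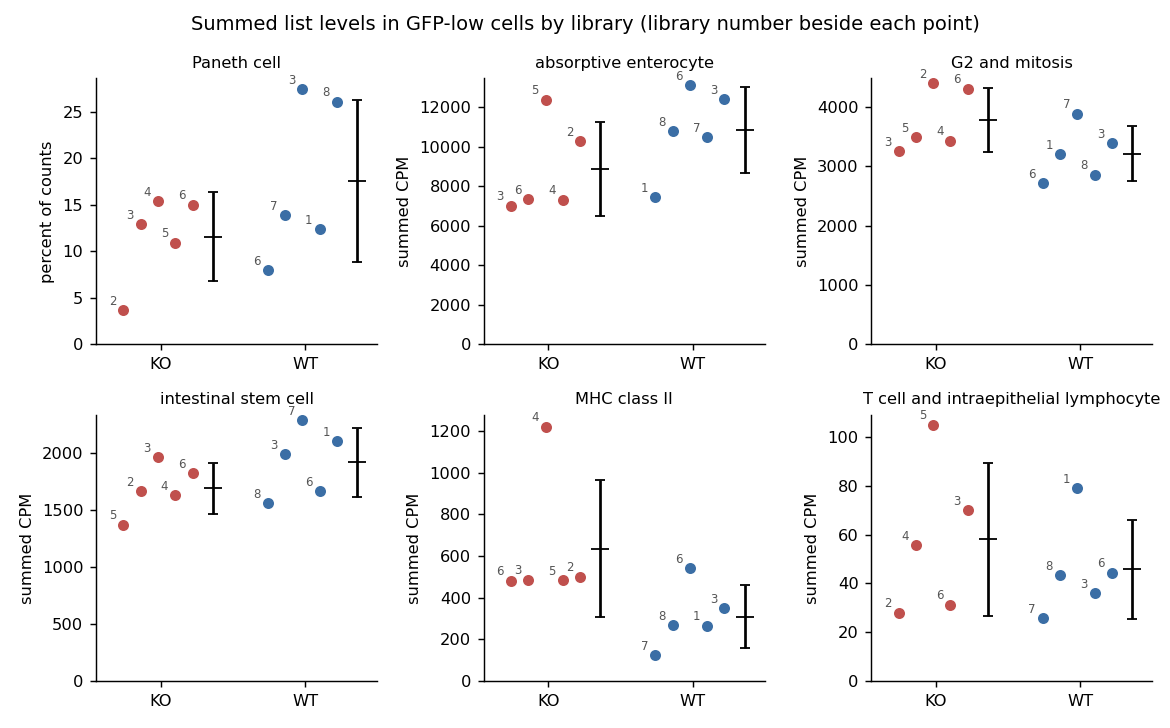
Summed level of 6 gene lists in each GFP-low library, KO in red on the left and WT in blue on the right, with library numbers and mean and SD bars (n = 5 each); the Paneth panel gives percent of counts and the others summed CPM, from 0. WT libraries 3 and 8 hold the highest Paneth shares (27.4% and 26.1%), and KO library 4 the highest MHC class II sum (1221 CPM).

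MHC class II genes had the largest median of the lists with 5 or more measured genes. Of 7 tested MHC class II genes, which present peptides to CD4+ T cells, 0 passed, all had a log2 fold change above 0 and 4 were higher at an unadjusted p under 0.05 (57.1%, against 2.93% of all genes), with a median of 1.04. H2-Ab1, a chain of the class II molecule, was at 249.6, 260.3, 614.1, 260.5 and 223.9 CPM in KO libraries, against 148.7, 152.1, 245.2, 62.6 and 171.3 CPM in WT libraries. Cd74, the invariant chain that guides class II assembly, was at 121.3, 114.0, 312.5, 106.8 and 139.9 CPM in KO libraries, against 54.3, 85.0, 134.6, 23.6 and 43.5 CPM in WT libraries. In both genes WT library 6 lay within the KO range and KO library 4 was far above the other KO libraries. Their log2 fold changes were 1.04 ± 0.33 and 1.22 ± 0.41 (edgeR adjusted p = 0.745 each). Leaving out 1 library gave counts of 2 to 6 of 7 and medians of 0.52 to 1.27, and the count was 2 without WT libraries 3 and 8. Ptprc, Csf1r and Cd79a, markers of the leukocytes that also express class II genes, had no row in the table, and the 6 measured genes of a myeloid list summed to 52.7 to 78.8 CPM in KO and 63.1 to 97.5 CPM in WT libraries. The myeloid list shares Lyz2 with the Paneth list. Its highest sums, 97.5 and 92.5 CPM, were in WT libraries 3 and 8, so it is no separate measure of myeloid cells. The T cell and intraepithelial lymphocyte list leaned the same way as class II, with 0 of 12 genes at an unadjusted p under 0.05 in edgeR and a median of 0.34, which was 0.12 without KO library 5, 0.10 without WT libraries 3 and 8, and 0.93 with 3 genes higher without WT library 1. Its members Gzmb, Cd7 and Gzma had log2 fold changes of 1.08 ± 0.55, 0.90 ± 0.46 and 0.83 ± 0.60, each with overlapping groups. The part of lymphocyte RNA in the class II values was not tested.

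Class I and immunoproteasome genes gave 4 higher (14.8%, against 2.93% of all genes) and 1 lower (3.7%, against 3.39%) of 27, with a median of 0.12. The higher count was 2 without KO library 4 and 7 without WT library 6, and the median was 0.07 without WT library 7. Psmb8 had the smallest p among those higher, an immunoproteasome subunit, at 276.3 to 396.4 CPM in KO and 197.0 to 298.9 CPM in WT libraries (0.49 ± 0.13; adjusted p = 0.731). The interferon response list had 1 higher and 1 lower of 52 (1.92% each, against 2.93% and 3.39% of all genes), with a median of -0.03. It had 5 higher and 0 lower without WT libraries 3 and 8 (median 0.05). Tlr1, a receptor for bacterial lipoproteins and 1 of the 24 named genes, was at 3.30, 3.62, 3.95, 2.05 and 2.56 CPM in KO libraries, against 1.43, 1.36, 1.79, 1.45 and 1.57 CPM in WT libraries without overlap (1.02 ± 0.23; adjusted p = 0.573).

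Of the binding partners of integrin beta 7 named above, Cdh1 and Itga4 were measured, and Itgae and Madcam1 had no row. Cdh1, which encodes E-cadherin, was at 269.5 to 313.4 CPM in KO and 279.7 to 298.8 CPM in WT libraries, with a log2 fold change of 0.06 ± 0.09. Itga4, the alpha 4 partner, named after its values were seen, was at 0.355 to 1.60 CPM in KO and 0.545 to 2.65 CPM in WT libraries (-0.44 ± 0.53). Of 15 tested integrin and ligand genes and of 20 adherens junction genes, 0 differed at an unadjusted p under 0.05 in edgeR. The share over all genes was 6.32%, and the list medians were 0.09 and 0.04. Without WT libraries 3 and 8 these medians were -0.0227 and -0.0231. Among 20 epithelial genes that lymphocytes recognise or respond to, also 0 differed at that threshold (median 0.00). Ccl25, the chemokine that draws alpha 4 beta 7 lymphocytes to the small intestine, named after its values were seen, had a log2 fold change of -0.28 with overlapping groups.

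Smaller groups completed the picture. Cholesterol biosynthesis genes were all above 0 (25 of 25, median 0.18, 3 higher at an unadjusted p under 0.05, which is 12% against 2.93% of all genes), but the count was 0 without KO library 6 or WT library 6, 7 or 8, 9 without WT library 3 and 7 without WT libraries 3 and 8. Fatty acid synthesis genes had a median of 0.20 with 2 of 12 higher (16.7%, against 2.93% of all genes). That count was 0 without WT library 8 or without WT libraries 3 and 8. Circadian clock genes had a median of -0.35 with 5 of 17 lower (29.4%, against 3.39% of all genes), among them Per3 at 11.7 to 15.1 CPM in KO and 13.3 to 53.8 CPM in WT libraries. The highest Per3 value was that of WT library 8, and without it 0 of 17 clock genes were lower at that threshold. Without WT library 3 the clock median was -0.17, and without WT libraries 3 and 8 it was -0.175 with 2 lower. Genes of dissociation stress, a sign of cell handling, had 6 of 30 lower (20%, against 3.39% of all genes; median -0.20), including the chaperone Hspa1b at 4.29 to 10.9 CPM in KO and 6.76 to 38.1 CPM in WT libraries (-1.48 ± 0.43). The stress count was 4 and the median -0.05 without WT library 6, and the count was 10 without WT library 3 or 7. Unfolded protein response genes had 3 of 30 lower (10%, against 3.39% of all genes), with a median of -0.08. Among those lower was Canx, a chaperone of the endoplasmic reticulum, at 367.7 to 882.1 CPM in KO and 769.1 to 1995 CPM in WT libraries (-1.11 ± 0.29, edgeR adjusted p = 0.731). The direction of this list rested on WT library 8, without which the median was 0.02 and 1 gene was lower, and without WT libraries 3 and 8 the median was 0.01. Medians were -0.07 for 79 ribosomal protein genes, 0.00 for 74 oxidative phosphorylation genes and 0.06 for 22 glycolysis genes, with 1, 0 and 0 members at an unadjusted p under 0.05 in edgeR. The share of all genes at that threshold was 6.32%. No member of any of the 41 lists passed in the main edgeR fit, and Arhgef10 was in none of them. The list members Sox9 and Fabp1 passed in DESeq2. Fabp1, Rbp2, Apoa1 and other members passed with the replicate block described below.

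GFP-high cells of the same numbers were tested in the same way. In them 0 of 11745 genes passed in edgeR, 1150 (9.79%) differed at an unadjusted p under 0.05, and DESeq2 called 143. Arhgef10 had a log2 fold change of -1.56 ± 0.34 in GFP-high cells (edgeR adjusted p = 0.167, DESeq2 0.00471), at 0.737 to 1.99 CPM in KO and 2.35 to 5.71 CPM in WT libraries, which did not overlap. Banp was at 19.2 to 47.7 CPM in KO and 52.8 to 90.1 CPM in WT GFP-high libraries (-1.29 ± 0.23), and Nfib at 246.8 to 343.9 and 145.7 to 222.2 CPM (0.70 ± 0.13). For Sox9 the log2 fold change was -0.71 ± 0.13 in GFP-low and -0.25 ± 0.12 in GFP-high cells, and for Fabp1 -1.10 ± 0.25 and -0.45 ± 0.32. Both were chosen by p in GFP-low cells, so their larger values there are not read as a difference. Lgr5 gave -0.89 ± 0.36 in GFP-low and 0.06 ± 0.12 in GFP-high cells.

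The difference between the KO effects was itself tested, and 0 of 11284 genes passed in edgeR, with 353 (3.13%) at an unadjusted p under 0.05 and 0 called by DESeq2. With the library number within genotype as a block the count was also 0, with 776 genes (6.88%) at an unadjusted p under 0.05. For Arhgef10 the KO effect in GFP-low minus that in GFP-high cells was -0.74 ± 0.39 (adjusted p = 0.9996). Egfl7, a secreted protein known from endothelium, gave the smallest p of that test among the 24 named genes, with 1.08 ± 0.27 in GFP-low and -0.40 ± 0.23 in GFP-high cells, a difference of 1.49 ± 0.33. Its levels were low, at 1.81 to 2.88 CPM in KO and 0.648 to 1.63 CPM in WT GFP-low libraries, which did not overlap, and at 2.38 to 4.11 CPM in KO and 3.02 to 5.16 CPM in WT GFP-high libraries, which did. The 24 named genes were chosen by small p in GFP-low cells, which favours large effects there. Nothing is therefore read from the rank of Egfl7 or the size of its difference. A p that misses the threshold does not show that the effects are alike in both populations.

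**Figure D5:**
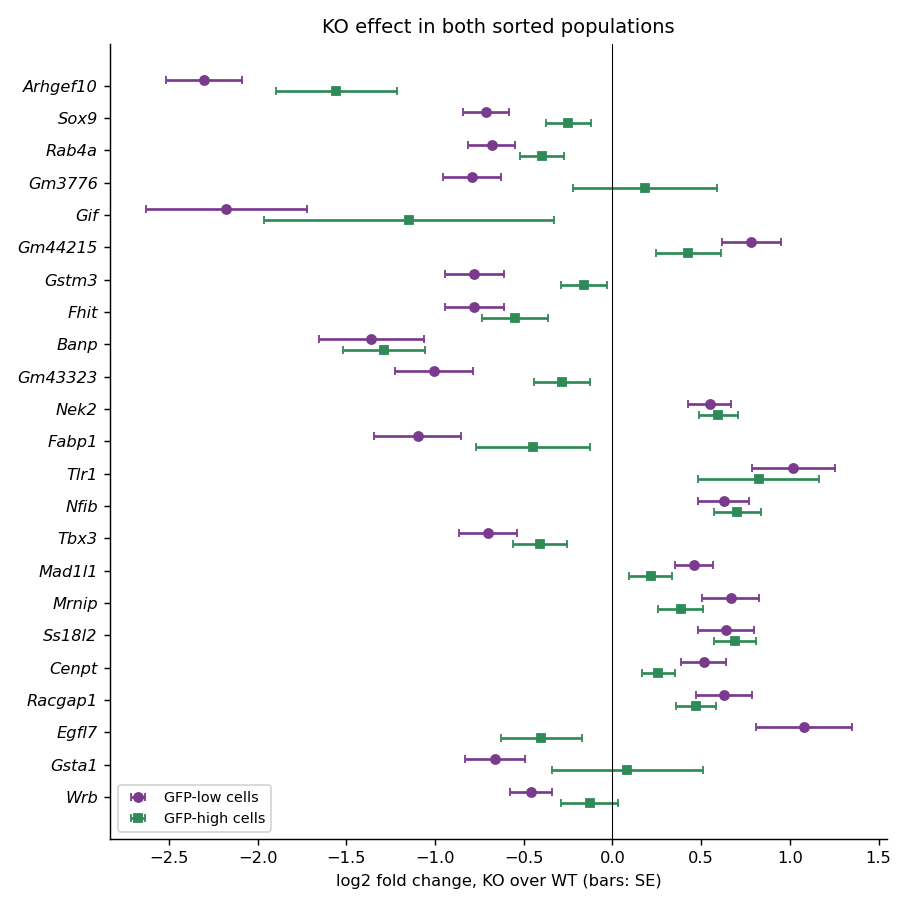
Log2 fold changes (KO over WT, x axis, bars are SE) of 23 of the 24 named genes that were tested in both tables, GFP-low in purple above GFP-high in green. The genes were chosen by p in GFP-low cells, which favours large GFP-low values. Arhgef10 and Banp are below 0 by more than 1 in both populations, while Egfl7 is 1.08 in GFP-low and -0.40 in GFP-high cells.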

How the data were processed

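RNA sequencing libraries of sorted GFP-low cells were compared, 5 KO against 5 WT. The authors deposited expected counts per gene, 1 table per population; RSEM, Bowtie2 and TopHat2, on mouse build mm10, are named per the submitters' processing notes, with versions and roles not given in the sources used here. Strandedness is not given either, so a gene's reads may include those of an overlapping or antisense neighbour. The deposited expected counts were not normalized (library totals differ), and 13.7% of GFP-low values were not whole and were rounded. The lowest mean count of an entry was 16.8. Among GFP-low entries, 17 had names turned into dates and 30 shared a name with another entry; each was tested as deposited. RSEM shares reads between near-identical genes, which are uncertain individually.

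The main test was edgeR's (version 4.0.16, R 4.3.3) quasi-likelihood F test, with TMM factors, filterByExpr at its minimum count of 10 and Benjamini-Hochberg adjustment over all genes at 0.05. The script was tested on simulated data. Only the 10 GFP-low libraries entered the fit; GFP-high libraries had their own fit, and the difference between populations was an interaction over all 20. Levels are CPM, SE belongs to log2 fold changes and SD to levels. Alternatives were DESeq2 1.42.0, its size factors, library totals, other count minima, Paneth genes left out, libraries left out and a replicate block. Within a genotype, libraries of the same number deviated together between populations (r 0.169 to 0.625). Libraries of different numbers were not compared across populations, so these values do not settle whether the numbers pair them. In GFP-low cells, KO and WT libraries of the shared numbers 3 and 6 did not deviate together (r -0.0809 and -0.105). Libraries within a group were compared by chi-square of their counts; the lowest value, 25.2 per gene, was far above sampling noise.

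The 24 named genes are every passing gene and then those of smallest p; Lgr5, up to 4 members of smallest p per list and cell type markers were added. The members and lists were chosen with earlier results of these data known. Lists are described by counts and medians, with no set test. Promoters are from RefSeq (GRCm38.p6), in which 13 of the 24 genes had a row. Positions are from GENCODE M21.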

Additional observations from a re-analysis of the deposited data

Results flagged for a closer look

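Of 124 groups of 5 libraries examined, 5 had a library far from the other 4, and chance gives about 1 in 20. Gif, the gastric intrinsic factor, was at 2.92 CPM in KO library 4 and at 0.636 to 1.19 CPM in the other KO libraries, and at 1.67 CPM in WT library 6 and 6.51 to 7.64 CPM in the other WT libraries. Its log2 fold change was -2.18 ± 0.45 (edgeR adjusted p = 0.490, DESeq2 0.00213), and the groups overlapped through these libraries. Summed over the MHC class II list, KO library 4 was at 1221 CPM and the other KO libraries at 480.9 to 500.3 CPM. The secretory progenitor sum was 1652 CPM in KO library 2 and 2805 to 3133 CPM in the other KO libraries, and KO library 2 also had the lowest Paneth share. The epithelial innate defence sum was 20430 CPM in KO library 5 and 12320 to 14080 CPM in the other KO libraries.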

How the results depend on the processing

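Arhgef10 was called in GFP-low cells under each alternative of scaling, filtering, fit and left-out library that was run, except with the replicate block, with a log2 fold change of -2.39 to -2.15. The number of genes called stayed at 1 except as follows. DESeq2 called 12 (1 higher, 11 lower) in GFP-low and 143 in GFP-high cells. With the replicate block over the shared numbers 3 and 6, which leaves 1 residual degree of freedom, 36 were called (7 higher, 29 lower) and Arhgef10 was not, with a log2 fold change of -2.35 and an adjusted p of 0.0617. In that fit the KO effect rests on numbers 3 and 6. The 36 included the Y-linked Eif2s3y and Ddx3y at log2 fold changes of 10.22 and 10.04, and Y-linked transcripts were present in KO library 3 but not in WT library 3. Leaving out each library gave 1 to 2 genes called in GFP-low cells, 1 to 2 lower and 0 to 0 higher, and 0 to 1 in GFP-high cells. The difference between populations gave 0 to 0, and its call did not change with the replicate block. Of 37 list medians, 13 moved by more than the spread between libraries of a group with the replicate block, and 10 with library totals only. All 37 stayed within it with DESeq2. In the block fit H2-DMa and H2-Eb1 were at -0.19 and -0.25, against 0.68 and 1.17 in the main fit, while H2-Ab1 and Cd74 did not reverse. At an unadjusted p under 0.05, 437 genes differed without WT libraries 3 and 8, a setting chosen after seeing the data, against 744 with all libraries. The cause of these shifts was not tested. Depth limits Arhgef10 to 18 to 22 counts per KO library, so its fold rests on few reads.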

Other observations

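Several of the 24 named genes fall in no group described above. Fhit, a nucleotide hydrolase, was at 4.66 to 5.41 CPM in KO and 6.82 to 11.6 CPM in WT libraries, which did not overlap (log2 fold change -0.78 ± 0.17; edgeR adjusted p = 0.490, DESeq2 0.0165). Ss18l2 was at 85.2 to 124.9 CPM in KO and 45.0 to 80.4 CPM in WT libraries (0.64 ± 0.16), and Mrnip, which interacts with the MRN DNA repair complex, at 21.1 to 31.4 and 11.0 to 19.5 CPM in KO and WT libraries (0.67 ± 0.16). Neither overlapped between groups. Wrb was at 19.7 to 24.6 CPM in KO and 24.01 to 36.03 CPM in WT libraries, which overlapped (-0.46 ± 0.12). The gene models Gm26620 (-1.72 ± 0.29), Gm44215 (0.78 ± 0.17) and Gm43323 did not overlap between groups, and Gm43323 was at 2.29 to 4.03 CPM in KO and 4.86 to 8.94 CPM in WT libraries. Gm26620 rested on 7 to 12 counts per KO library.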
